A study of Mus musculus with 2 samples.

Results

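The transducers and TCF factors of canonical Wnt signalling were examined in PB and PB-TERRA mESCs. They are the 9 genes Lrp5, Lrp6, Axin1, Apc, Gsk3a, Gsk3b, Ctnnb1, Tcf7l1 and Tcf7l2, taken by symbol from the 18888 genes of the deposited table, in which each symbol has a single row. PB mESCs carried the empty PiggyBac vector, and PB-TERRA mESCs carried the same vector with a telomeric repeat insert, from which polyadenylated TERRA, the RNA transcribed from telomeres, is overexpressed. Both are of the 46C line, a mouse embryonic stem cell line with a Sox1-GFP reporter, were labelled with passages 21 to 24, and were kept on gelatin in conventional mESC medium. Each condition has a single RNA library (1 of PB, 1 of PB-TERRA), so differences between the libraries and between the conditions cannot be told apart, and no difference below has a replicate check.

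In canonical Wnt signalling, a Wnt ligand bound to a Frizzled receptor and to the co-receptor LRP5 or LRP6 stops the breakdown of β-catenin. Without ligand, β-catenin is held by the scaffolds Axin and APC, phosphorylated by casein kinase 1 and then by GSK3, and degraded. β-catenin that escapes enters the nucleus and binds TCF and LEF factors on DNA. In mESCs, TCF7L1 acts mainly as a repressor of pluripotency genes, and β-catenin relieves this repression. CHIR99021 inhibits both GSK3 kinases and is used to keep mESCs self-renewing, and the study grew such mESCs with and without it. The RNA levels of the pathway therefore address which of its parts, if any, differed between PB and PB-TERRA mESCs. The activity of GSK3 and the amount of β-catenin protein are not analysed here.

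Levels are given in FPKM, which is scaled to gene length and to library size, so that levels of different genes can be set side by side. A difference is the log2 ratio of the PB-TERRA to the PB value, each as FPKM + 0.1. From the steps between low FPKM values, the depth was estimated at 24822000 reads in PB and 24917000 in PB-TERRA. Reads per gene follow from these depths, and the 95% intervals of log2 ratios are exact binomial intervals that cover counting error only, not the spread between cultures. A filter of at least 1 FPKM in either library was passed by 12263 genes, the 9 transducers and TCF factors among them. Over these genes the median log2 ratio was -0.0044 and the median absolute log2 ratio 0.107. All 9 mESC markers were expressed in both libraries, at 49.74 to 1162.5 FPKM in PB, and 4 were higher and 5 lower in PB-TERRA. Their intervals lay above 0 for 3 (Pou5f1, Sox2, Esrrb) and below 0 for 4 (Nanog, Dppa5a, Tdgf1, Utf1). All 9 had at least 1000 reads in both libraries, a depth at which 48.4% of all genes past the filter had an interval off 0. The highest log2 ratios were those of Esrrb (0.14) and Sox2 (0.11), and the lowest those of Tdgf1 (-0.18) and Dppa5a (-0.16). All 7 primitive endoderm markers past the filter were higher in PB-TERRA (summed level of the 9 listed markers 35.91 and 44.92 FPKM). So were 3 of 4 fibroblast markers past the filter (8 in the table, 19.72 and 23.90 FPKM). Pdgfra (0.51 and 1 FPKM), Col1a2 (0.92 and 1.37) and Pdgfrb (0.94 and 1.05) passed the filter only through PB-TERRA, which fixed their direction in these counts. The interval lay above 0 for 6 of the 7 and 2 of the 4, against 18.2% of all genes past the filter. A log2 ratio above 0 was found for 48.6% of all genes past the filter. Of 4 neural markers past the filter 2 were higher and 2 lower (6 in the table, 89.97 and 78.27 FPKM), with Nes (log2 ratio -0.38) and Tubb3 (-0.16) lower beyond counting error and Sox1 (0.52) higher. Both mesendoderm markers past the filter were lower (5 in the table, 16.25 and 14.30 FPKM), and the interval lay below 0 for Eomes (-0.27) and included 0 for T (-0.12). Of the defining markers, Gata6 had 1.22 and 2.26 FPKM and Col1a1 7.99 and 12.14 FPKM, while Foxa2 had 0.17 and 0.47 FPKM and Lum 0.06 and 0.04 FPKM. The part of such cells in the Wnt values was not tested.

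Several of these genes are paralogs, so it was examined how far their transcripts can be told apart by sequence. Of all 50-base stretches of the annotated coding transcripts (GENCODE M21, mouse genome GRCm38), 0% of those in Axin1, Tcf7l1, Tcf7l2, Lrp5 and Lrp6 occurred in a transcript of another gene on either strand. For Gsk3b the share was 0.0239% and for Apc 0.391%. No paralog of the families below shared such a stretch with another. The longest runs of bases that the coding sequences of paralogs share are shown, because they are the longest exact matches between members of a family. Matches with mismatches were not examined.
Gsk3a and Gsk3b, 17 bases: agtgcaaagcagctggt
Lrp5 and Lrp6, 22 bases: tcatgtactggacagactgggg
Tcf7l1 and Tcf7l2, 23 bases: aactatgggaagaagaagaagag
The run of Gsk3a lies across exons 5 and 6 at chr7:25231727-25231835 on the - strand, and that of Gsk3b across exons 5 and 6 at chr16:38187940-38191542 on the + strand of GRCm38. The run of Lrp5 lies in exon 7 at chr19:3628421-3628442, and that of Lrp6 in exon 3 at chr6:134520570-134520591, both on the - strand. The run shared by the TCF factors spans exons 10 and 11 in both, at chr6:72630015-72631017 on the - strand in Tcf7l1 and at chr19:55919613-55923912 on the + strand in Tcf7l2.
The share was higher for Gsk3a (19.0%) and Ctnnb1 (15.2%), whose exons overlap a gene on the opposite strand. All 664 shared stretches of Ctnnb1 occur in Ulk4, the gene it overlaps. Of the 429 of Gsk3a, 400 occur in 9130221H12Rik, the gene it overlaps, and 33 in Gm6275, with which no exon overlap was found. The exons of Gsk3a overlap 9130221H12Rik over 820 bases and those of Ctnnb1 overlap Ulk4 over 759 bases. The library kit named in the labels does not mark the strand, so reads from these overlaps cannot be assigned by strand. 9130221H12Rik had 3.03 FPKM in PB against 3.07 in PB-TERRA, and Ulk4 had 0.48 and 0.51 FPKM, far below the genes they overlap. Tcf7l1 overlaps Gm15401 over 179 bases, and Gm15401 had 0.25 and 0.27 FPKM. In the table, the orthology number of one of the 9 genes is also carried by 6 genes of another symbol (9130221H12Rik, Apc2, Dgcr2, Mansc1, Tgoln1 and Tgoln2) and by 0 of the predicted gene models.

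All 9 genes had nearly the same RNA level in both libraries. The log2 ratio was above 0 for 4 of them and below 0 for 5, between -0.16 in Lrp5 and 0.15 in Gsk3b, with a median of -0.011. Of all genes past the filter, 48.6% had a log2 ratio above 0 and 50.9% below 0. An absolute log2 ratio of at least 1 was found for 0 of the 9 genes and for 0.913% of all genes, and one of at least 0.5 for 0 of the 9 and for 4.67% of all genes. The counting interval lay above 0 for 2 of them, Gsk3b and Apc, against 18.2% of all genes, and below 0 for 3, Lrp5, Tcf7l1 and Ctnnb1, against 17.6%. Such shares depend on depth, since a narrow interval needs many reads. Among the 5068 genes past the filter with at least 1000 reads in both libraries, the interval lay off 0 for 48.4%, and of the 8 Wnt genes at that depth it did so for 5. The farthest bound of any of the 9 intervals was 0.25 from 0, so a 2-fold difference between these 2 libraries lay outside every counting interval.

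**Figure D1:**
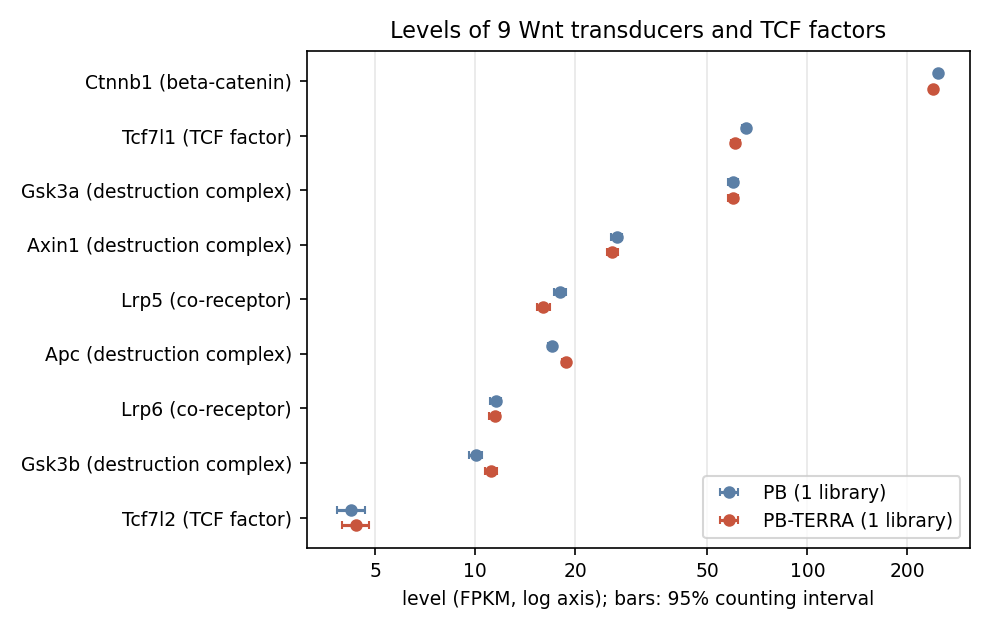
Level of each of the 9 genes in FPKM (log axis) in PB (blue) and PB-TERRA (red), 1 library each, with 95% counting intervals. The points of each gene lie close together, while the genes range from about 4 FPKM (Tcf7l2) to 246.73 FPKM (Ctnnb1).

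At the membrane, the co-receptors LRP5 and LRP6 are phosphorylated when a Wnt ligand binds, and then recruit Axin. Lrp5 had 17.95 FPKM in PB against 16.03 in PB-TERRA, from 2253 and 2020 reads. Its log2 ratio of -0.16 (95% counting interval -0.25 to -0.076) was the lowest of the 9, and 33.2% of all genes past the filter lay at least as far from 0. Lrp6 had 11.53 and 11.44 FPKM, from 2648 and 2638 reads. Its log2 ratio of -0.011 (-0.089 to 0.067) was not distinguishable from 0 at this depth, and it turned to 0.026 when both libraries were scaled to the same sum of FPKM. The log2 ratio of Lrp5 was lower than that of Lrp6 by an interval that did not include 0 (difference -0.15, 95% counting interval -0.27 to -0.035). With the length trend taken off, the interval stayed below 0 (-0.13, -0.24 to -0.010). Lrp5 made up 60.9% (59.6 to 62.2) of the summed FPKM of both co-receptors in PB and 58.4% (56.9 to 59.8) in PB-TERRA.

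In the destruction complex, Axin1 encodes the scaffold that binds GSK3, casein kinase 1, APC and β-catenin. Axin1 had 26.63 FPKM in PB against 25.89 in PB-TERRA, from 2386 and 2328 reads, and its interval included 0 (log2 ratio -0.041, -0.12 to 0.042). Apc encodes the second scaffold, a large tumour suppressor protein. It had 17.06 and 18.77 FPKM, from 5196 and 5739 reads, and a log2 ratio of 0.14 (0.083 to 0.19).
Gsk3a and Gsk3b encode the kinases GSK3α and GSK3β, which mark β-catenin for degradation and which are both inhibited by CHIR99021. Gsk3a had 59.70 and 59.78 FPKM, from 3202 and 3219 reads. At the deposited scaling its log2 ratio was the nearest to 0 among the 9 genes (log2 ratio 0.0019, -0.069 to 0.073). With equal sums of FPKM it was 0.040 (-0.031 to 0.11), and Axin1 lay nearest to 0 (-0.0025). Scaled to the same upper quartile, the log2 ratio of Gsk3a was below 0 (-0.0087). Gsk3b had 10.02 and 11.16 FPKM, from 2035 and 2275 reads, and the highest log2 ratio, 0.15 (0.068 to 0.24). At least as far from 0 lay 35.2% of all genes past the filter for Gsk3b and 39.8% for Apc. Summed over both kinases, the level was 69.72 FPKM in PB against 70.94 in PB-TERRA. Gsk3a was 5.96 times as high as Gsk3b in PB and 5.36 times in PB-TERRA, and it made up 85.6% (84.9 to 86.3) and 84.3% (83.6 to 85.0) of the sum. The log2 ratio of Gsk3a was lower than that of Gsk3b by 0.15 (difference -0.15, 95% counting interval -0.26 to -0.041). With the length trend taken off, the difference was -0.079 and its interval included 0 (-0.19 to 0.033), so it was not distinguishable from 0. Of the 4 destruction-complex genes, 3 were higher in PB-TERRA and 1 was lower, while 48.6% of all genes past the filter were higher. Scaled to the same upper quartile, 2 of the 4 were higher and 2 lower.

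Ctnnb1 encodes β-catenin, which acts both in transcription and at adherens junctions. It had by far the highest level of the 9 genes, 246.73 FPKM in PB against 239.55 in PB-TERRA, at or above 97.8% of all genes past the filter in each library. With 21031 and 20497 reads it was also measured most precisely. Its log2 ratio of -0.043 (-0.070 to -0.015) corresponds to a difference of -2.91% in FPKM, and 77.9% of all genes past the filter lay at least as far from 0. When both libraries were scaled to the same sum of FPKM, the log2 ratio was -0.0046 (-0.032 to 0.023), an interval that includes 0. A difference of this size therefore depends on the scaling.

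The TCF factors bind DNA through an HMG box. Tcf7l1 was the second highest of the 9 genes, with 65.29 FPKM in PB against 60.67 in PB-TERRA, from 4442 and 4144 reads. Its log2 ratio was -0.11 (-0.17 to -0.044), a difference of -7.08% in FPKM, and 50.3% of all genes past the filter lay at least as far from 0. Scaled to the same sum of FPKM it was -0.068, with an interval that stayed below 0 (-0.13 to -0.0063). Tcf7l2 was the lowest of the 9, with 4.22 and 4.37 FPKM from 421 and 438 reads. Its interval was the widest and included 0 (log2 ratio 0.049, -0.14 to 0.25), so a difference like that of Tcf7l1 was not detectable in it at this depth. The log2 ratios of Tcf7l1 and Tcf7l2 differed by -0.15 with an interval that included 0 (-0.36 to 0.047).
Tcf7 and Lef1, the other two genes of the family, act more often as activators together with β-catenin. Tcf7 had 29.61 FPKM in PB against 26.08 in PB-TERRA (log2 ratio -0.18, -0.28 to -0.092). Lef1 had 5.48 and 4.75 FPKM (log2 ratio -0.20, -0.41 to -0.0067). Scaled to the same sum of FPKM, the interval of Lef1 included 0 (-0.16, -0.37 to 0.031) and that of Tcf7 did not (-0.14, -0.24 to -0.054). The summed level of the family was 104.60 FPKM in PB against 95.87 in PB-TERRA. Tcf7l1 made up 62.4% (61.3 to 63.5) of this sum in PB and 63.3% (62.1 to 64.4) in PB-TERRA, and Tcf7l2 made up 4.03% (3.65 to 4.42) and 4.56% (4.14 to 4.98). For both genes the counting intervals of the libraries overlapped. The log2 ratio of Tcf7l1 exceeded that of Tcf7 by 0.077 (-0.033 to 0.19) and that of Lef1 by 0.097 (-0.11 to 0.30), and both intervals included 0.
Tcf7l1 and Tcf7l2 are also called Tcf3 and Tcf4 in work on mESCs, whereas the rows Tcf3 and Tcf4 of the table are a different family, the E proteins. The row Tcf3 had 42.39 and 38.77 FPKM (log2 ratio -0.13) and the row Tcf4 had 4.97 and 4.77 FPKM (-0.058).

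**Figure D2:**
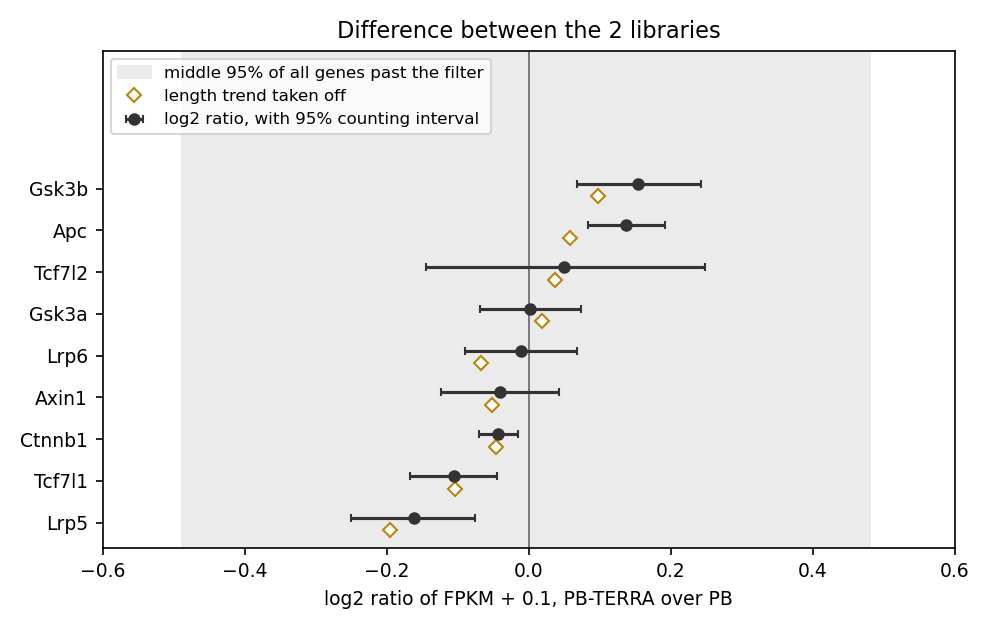
Log2 ratio (PB-TERRA to PB, FPKM + 0.1) of each of the 9 genes (black points, with 95% counting intervals) and the same with the length trend taken off (open diamonds). The grey band holds the middle 95% of the 12263 genes past the filter, from -0.49 to 0.48, and all 9 intervals lie inside it.

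**Figure D3:**
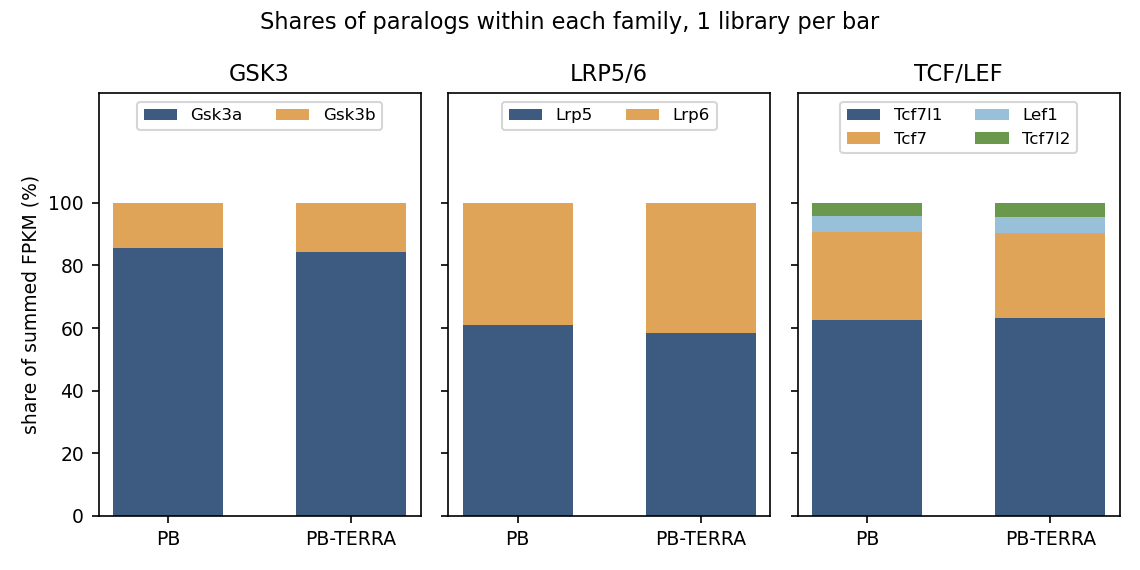
Share of each paralog in the summed FPKM of its family (%), PB and PB-TERRA, 1 library per bar. Gsk3a, Lrp5 and Tcf7l1 hold the largest share of their families in both libraries, at 85.6% and 84.3%, 60.9% and 58.4%, and 62.4% and 63.3%.

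The order of the 9 levels was nearly the same in both libraries. In PB it ran from Ctnnb1 over Tcf7l1, Gsk3a, Axin1, Lrp5, Apc, Lrp6 and Gsk3b to Tcf7l2, and each neighbour differed from the next beyond counting error. Ctnnb1 stood 3.78 times above Tcf7l1 in PB and 3.95 times in PB-TERRA. The smallest step in PB was that from Lrp5 to Apc, a ratio of 1.05 (95% counting interval 1.001 to 1.11). In PB-TERRA this step was turned round, with Apc 1.17 times as high as Lrp5 (1.11 to 1.23). Further neighbours did not differ beyond counting error in PB-TERRA, namely Tcf7l1 and Gsk3a (ratio 1.01, 0.969 to 1.06) and Lrp6 and Gsk3b (ratio 1.03, 0.969 to 1.09). These same pairs had ratios of 1.09 (1.04 to 1.14) and 1.15 (1.09 to 1.22) in PB. From the highest to the lowest gene, the levels spanned a factor of 58.5 in PB and 54.8 in PB-TERRA.

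The log2 ratio moved with gene length across the whole table, from a median of -0.059 in the shortest length decile to 0.047 in the longest. Apc, with 12386 bases in the table, and Gsk3b, with 8298 bases, are long and have the highest log2 ratios of the 9. With the median of genes of like length taken off, the log2 ratio was 0.058 in Apc (0.0046 to 0.11) and 0.097 in Gsk3b (0.012 to 0.19), and both intervals stayed above 0. Lrp6, with 9368 bases, and Lrp5, with 5172 bases, lay below genes of their length. Their values without the length trend were -0.068 (-0.15 to 0.011) and -0.19 (-0.28 to -0.11). Tcf7l1, Ctnnb1 and Axin1 lie in the middle of the length range and hardly moved, to -0.10, -0.046 and -0.052. With the trend taken off, 4 genes remained above 0 and 5 below, with a median of -0.046. Why the log2 ratio follows length was not tested.

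**Figure D4:**
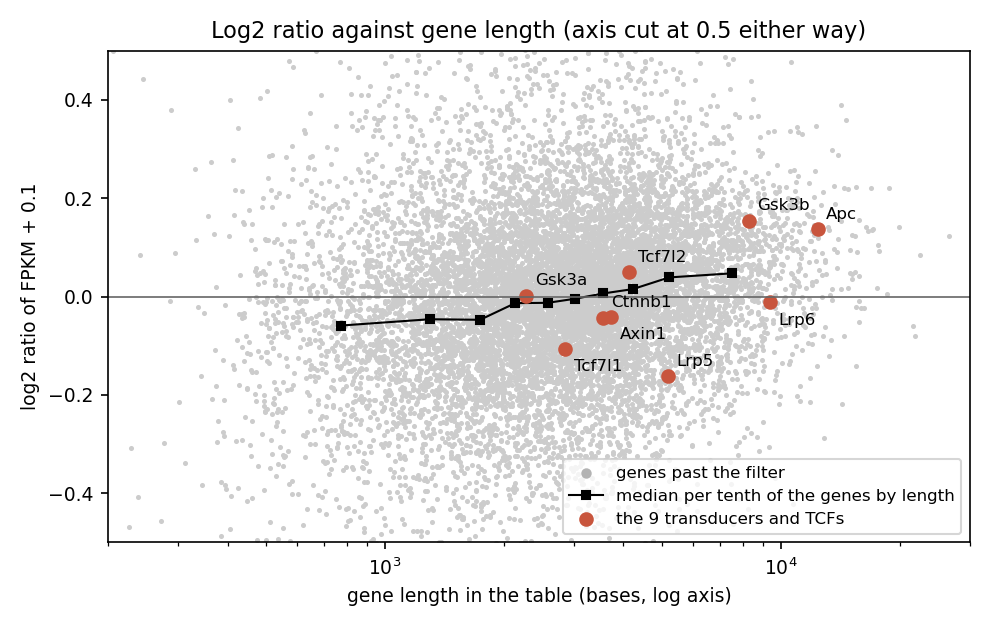
Log2 ratio of FPKM + 0.1 against gene length (bases, log axis) for the genes past the filter (grey) and the 9 Wnt genes (red), with the median of each length decile (black). The medians run from -0.059 to 0.047, and Gsk3b and Apc sit at the long end above 0, while Lrp5 lies furthest below the medians.

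Around the 9 genes, 113 other genes of the pathway, the 6 cadherin-catenin genes of the cell junction included, were listed by role, 111 of them in the table and 81 past the filter. Of these 81 genes, 52 were higher, 28 lower and 1 equal in PB-TERRA, with a median log2 ratio of 0.044. None of the 81 had an absolute log2 ratio of at least 1 (0 genes), 1 had a log2 ratio of at least 0.5 and 2 had one of at most -0.5. The counting interval lay above 0 for 27 of them (18.2% of all genes) and below 0 for 11 (17.6%). At the depth of at least 1000 reads in both libraries, it lay off 0 for 24 of 42, or 57.1%, against 48.4% of all genes. With the length trend taken off, 49 were higher and 32 lower, with a median of 0.032. The interval counts hold for the deposited scaling and depend on it. Among 20 further destruction-complex factors, the interval lay above 0 for 8 as deposited, for 5 with equal upper quartiles and for 9 with equal sums. It lay below 0 for 1 each time.
Upstream of Lrp5 and Lrp6, 6 of 18 Wnt ligand genes passed the filter, 2 higher and 4 lower (median log2 ratio -0.070, but 0.12 with no filter and 0.24 with a mean of at least 5 FPKM). Wnt6 (log2 ratio 0.55) and Wnt7b (0.24) had the highest values, and Wnt8a (-0.69) and Wnt9a (-0.14) the lowest. Wnt8a had 4.42 FPKM in PB against 2.71 in PB-TERRA, from 154 and 95 reads, and Wnt6 had 2.31 and 3.43 FPKM, from 112 and 167 reads. Wls, which carries Wnt ligands to the cell surface, had a log2 ratio of 0.43 (4.98 and 6.76 FPKM). Porcn, which attaches their lipid, had a log2 ratio of 0.044, and Notum, which removes it, one of 0.026. Of 9 Frizzled receptors past the filter, which share the ligand with LRP5 and LRP6, 6 were higher and 3 lower (median 0.010). With the length trend taken off, 4 were higher and 5 lower (median -0.0075), and scaled to the same upper quartile the median was also below 0 (-0.00053). Fzd7, the most abundant at 21.38 and 21.53 FPKM, had a log2 ratio of 0.010 with an interval that included 0 (-0.070 to 0.090). Fzd5, the next at 18.72 and 20.55 FPKM, had a log2 ratio of 0.13 with an interval above 0 (0.064 to 0.20). Both were named after their values were seen. The highest log2 ratios were those of Fzd4 (0.39) and Fzd10 (0.16), and the lowest those of Fzd2 (-0.27) and Fzd8 (-0.22). Fzd4 (0.79 and 1.07 FPKM) passed the filter only through PB-TERRA, which fixed its direction in the count of higher genes. The intervals of Fzd4 (70 and 95 reads, -0.026 to 0.90) and Fzd8 (98 and 83 reads, -0.68 to 0.19) included 0. That of Fzd10 lay above 0 but included 0 when scaled to the same upper quartile (-0.0021 to 0.31).
The turnover of Frizzled and LRP6 at the membrane is set by the R-spondin ligands, their LGR receptors and a pair of ubiquitin ligases, and 3 of these 9 genes passed the filter. Their log2 ratios were -0.20 for Rspo1, -0.14 for Lgr4 and 0.096 for Znrf3. Of 8 secreted or membrane inhibitors past the filter, 4 were higher and 4 lower (median -0.011, and 0.025 when scaled to the same sum of FPKM). They ran from Kremen2 (-0.65, 53 and 32 reads) and Sfrp4 (-0.21) to Sfrp1 (0.17) and Shisa2 (0.40). Kremen2 (1.06 and 0.64 FPKM) passed the filter only through PB, which fixed its direction in this count. The Dishevelled genes, whose proteins link Frizzled to Axin, had log2 ratios of -0.0097 (Dvl2), 0.047 (Dvl1) and 0.15 (Dvl3).

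Among 20 further destruction-complex factors past the filter, 15 were higher, 4 lower and 1 equal, with a median log2 ratio of 0.038. With the length trend taken off, 13 were higher and 7 lower, with a median of 0.0073. Axin2, a paralog of Axin1 and itself a target of β-catenin, had the highest log2 ratio of this list, 0.33 (5.75 and 7.25 FPKM). Csnk1a1, the casein kinase that primes β-catenin for GSK3, followed with 0.15 (106.86 and 118.70 FPKM). The lowest were Csnk1g2 (-0.18), a casein kinase of the membrane, and Btrc (-0.056), which recognises phosphorylated β-catenin for ubiquitination. In PB, Axin1 was thus at 26.63 FPKM and Axin2 at 5.75 FPKM, and in PB-TERRA at 25.89 and 7.25 FPKM.
In the nucleus, 8 of 11 co-repressors and inhibitors past the filter were higher and 3 lower (median log2 ratio 0.086). The Groucho-type co-repressor gene Tle4 (-0.17) and Ctbp1 (-0.17) were lowest, and Tle1 (0.16) and Aes (0.25) highest. Of 10 co-activators, which act with β-catenin on TCF targets, 8 were higher and 2 lower (median 0.11), and the interval lay above 0 for 6 and below 0 for 0 of them. All 6 were among the 9 co-activators with at least 1000 reads in both libraries, a depth at which the interval lay off 0 for 48.4% of all genes. With equal upper quartiles the interval lay above 0 for 5 co-activators, and with equal sums or centring on the median for 7. Their extremes were Tbl1x (-0.071) and Smarca4 (-0.0095), and Tbl1xr1 (0.21) and Pygo2 (0.28). With the length trend taken off, 8 co-activators were higher and 2 lower (median 0.094).

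**Figure D5:**
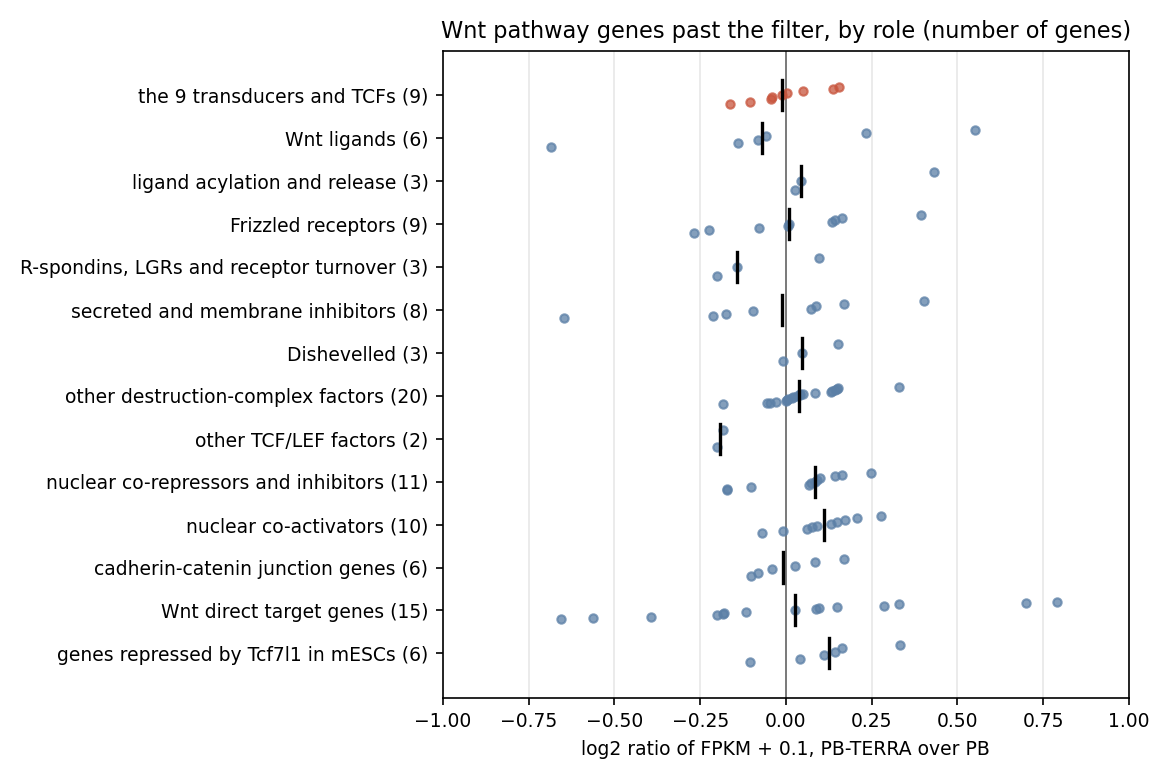
Log2 ratio (PB-TERRA to PB, FPKM + 0.1) of the genes past the filter in each role of the pathway (points), with the median of each list (black bars) and the number of genes in parentheses. The 9 transducers and TCF factors (red) span -0.16 to 0.15, while Wnt ligands and Wnt targets reach beyond 0.5 on both sides. At least 1000 reads in both libraries were reached by 8 of the 9 genes, 0 of 6 ligands and 3 of 15 targets.

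Downstream of the TCF factors, 15 of 21 listed Wnt target genes passed the filter, of which 8 were higher and 7 lower, with a median log2 ratio of 0.026. The list spread more widely than the 9 genes above it, from Nkd2 (-0.65) and Fgf8 (-0.56) to Cdx1 (0.70) and Cdx2 (0.79). Nkd2 had 189 and 118 reads and Fgf8 57 and 38 reads, while Cdx1 had 174 and 287 and Cdx2 60 and 108. These 4 targets lay between 1.19 and 7.04 FPKM, and both directions occurred among them. The interval of Fgf8 included 0 (-1.22 to 0.027), and those of Nkd2, Cdx1 and Cdx2 did not. Of the 15 targets past the filter, 3 had at least 1000 reads in both libraries, against 8 of the 9 genes. The 2 spreads thus rest on unlike depth, and the part of counting error in the wider one was not tested. Axin2, Lef1, Tcf7, Notum, Znrf3 and Apcdd1 belong to the target list as well as to those above. So do Rnf43, Lgr5 and Dkk1, which did not pass the filter.
Genes known to be repressed by TCF7L1 in mESCs were at levels from 15.18 to 186.41 FPKM in PB. Of the 6 listed, 5 were higher and 1 lower in PB-TERRA, with a median log2 ratio of 0.13. Tfcp2l1, a transcription factor of naive pluripotency, had 27.02 and 34.08 FPKM (log2 ratio 0.33), and Nr5a2 followed with 0.16. Klf2 had a log2 ratio of 0.041 and Nanog one of -0.10. All 6 had at least 1000 reads in both libraries, and their counting interval lay above 0 for 4 and below 0 for 1, against 48.4% of all genes off 0 at that depth. The study looked for pluripotency genes in these same libraries, so the direction of such a list is not independent evidence. Their level beside that of Tcf7l1 (log2 ratio -0.11) rests on the same 2 libraries, and a relation between them was not tested.

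For the promoters, RefSeq windows around the transcription start (GRCm38.p6) were found for 5 of the 9 genes, Ctnnb1, Gsk3a, Gsk3b, Tcf7l1 and Tcf7l2, in 7 windows. TTAGGG, the DNA repeat from which TERRA is transcribed, was found on either strand in 0 of these 7 windows and in 10.6% of all 32851 windows. The TCF motif CTTTGAT was found in 0 of them and in 3.73% of all windows, and its variant CTTTGAA in 1, that of Gsk3a, and in 5.14% of all windows. A match describes letters and not binding, and no match says only that these letters are not in the window.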

How the data were processed

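The samples were 46C mESCs with empty vector (PB) or with TERRA (PB-TERRA), each with 1 RNA-seq library of total RNA. The authors deposited FPKM values per gene, rounded to 2 decimals with a floor of 0.01. The header names no unit, and FPKM was read from the values. The submitters' processing notes name HISAT, Cufflinks and mm9, with no versions. The gene annotation is not given in the sources used here. The deposited fold changes, p-values, adjusted p-values and up or down calls of the authors' comparison were not used.

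Depth was fitted to FPKM and gene length alone. For genes under 3 FPKM, a fixed number of bases was taken off the length, and genes left with 100 to 700 bases were used. FPKM times this shortened length times depth should be whole. The best fit took 115 bases off the length in both libraries and left 76.2% (PB, 596 genes) and 80.5% (PB-TERRA, 622 genes) of values within 0.15 of a whole number. Why the values need these bases is not known. Reads are estimates from this fit. The computations were tested on simulated data.

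With 1 library per condition no test was run. The main value is the log2 ratio of FPKM + 0.1, with a filter of 1 FPKM in either library. Intervals are 95% Clopper-Pearson intervals of the estimated reads, and those of shares and of differences between log2 ratios use a normal approximation to the same reads. Alternatives were the pseudocount, the filter, the scaling, the length trend (medians of 50 length bins) and, added after seeing the data, the log2 ratio of the estimated reads. Genes named in a pathway list are its 2 highest and 2 lowest log2 ratios past the filter. Markers of other cell types were named after their values were seen. The 9 genes and all lists were chosen with earlier results of these data known. Stretches of 50 bases and exon overlaps come from GENCODE M21 on GRCm38, which is not the build of the submitters' notes. Intervals were computed with scipy 1.17.1 and tables with pandas 2.3.3 and numpy 2.4.6, in Python 3.11.15. Figures were drawn with matplotlib 3.10.9.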

Additional observations from a re-analysis of the deposited data

How the results depend on the processing

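Under every alternative run (pseudocount of 0.01 or 1 FPKM, centring, upper quartile, equal sum, length trend, no filter, mean of at least 5 FPKM, estimated reads), 0 of the 9 genes had an absolute log2 ratio of at least 1, and 0 had one of at least 0.5. The 235 values recomputed include counts and shares, which cannot change sign. Among the log2 ratios and list medians, the sign turned in 9. These were Gsk3a with equal upper quartiles (-0.0087), Lrp6 with equal sums (0.026) and 7 medians of 5 lists. Ctnnb1 moved to -0.0046 with equal sums of FPKM, and Apc to 0.058 with the length trend taken off. By reads instead of FPKM, which weights long genes more, Gsk3a had 61.1% and 58.6% of its pair in PB and PB-TERRA, Lrp5 46.0% and 43.4%, Tcf7l1 60.3% and 61.1% of the TCF and LEF family, and Tcf7l2 5.72% and 6.46%. Of the pair with Tcf7l2 alone, Tcf7l1 had 93.9% and 93.3% by FPKM and 91.3% and 90.4% by reads. The list medians that turned sign, which have no interval of their own, were those of the Wnt ligands with a mean of at least 5 FPKM (0.24) and with no filter (0.12), the R-spondin list with no filter (0.16), the Frizzled receptors with equal upper quartiles (-0.00053) and without the length trend (-0.0075), and, with equal sums, the inhibitors (0.025) and the junction genes (0.031). Over all genes, the 112 genes past 1 became 45 with a pseudocount of 1 FPKM, 17 with a mean of at least 5 FPKM and 513 with no filter, and the 573 past 0.5 became 285, 133 and 2282. Tcf7l2 does not pass the mean of 5 FPKM. No paired analysis was possible because each condition has 1 library. Depth limits Tcf7l2 most, with 421 reads in PB.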

Other observations

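The cadherin-catenin genes of the adherens junction, where β-catenin is also bound, are a list of 6 among the other pathway genes. All 6 had at least 1 FPKM in either library. In PB-TERRA, 3 of them were higher and 3 lower, with a median log2 ratio of -0.0071, which was 0.031 when both libraries were scaled to the same sum of FPKM. Cdh1, which encodes E-cadherin, had 163.80 FPKM in PB against 152.78 in PB-TERRA (log2 ratio -0.10, 95% counting interval -0.13 to -0.070). Ctnnd1, which encodes the p120 catenin that holds cadherins at the membrane, had 63.98 and 71.93 FPKM (0.17, 0.13 to 0.21). Cdh2 (0.085) and Cdh3 (-0.081) were low in level, and their intervals included 0. The level of Ctnnb1 beside that of Cdh1 was 246.73 against 163.80 FPKM in PB and 239.55 against 152.78 FPKM in PB-TERRA.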
